A study of Mus musculus with 12 samples.

Results

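Genes through which stromal cells control osteoclast formation, and genes of the osteoclast itself, were followed in cultured mouse bone marrow mesenchymal stem cells (MSCs), adherent stromal cells with the capacity to become bone, cartilage or fat cells. The set was chosen by gene symbol and holds 10 genes (Tnfsf11, Tnfrsf11b, Tnfrsf11a, Csf1, Nfatc1, Acp5, Ctsk, Dcstamp, Ocstamp and Calcr), all of which were found among the 18908 genes listed in both deposited tables. The labels place 12 RNA-seq libraries in 3 groups. Old melatonin cells (replicates 1, 3 and 5) came from old donors and received melatonin, a pineal hormone, at 1 µM for 24 h. Old vehicle cells (replicates 1, 3 and 5 in the melatonin table, and 2, 8 and 9 in the age table) came from old donors and had no melatonin by title. Young vehicle cells (replicates 2, 4 and 5) came from young donors and share the age table. All groups were grown in DMEM with 10% FBS. The labels give neither strain, age in months, passage, sorting nor pooling, and whether each library is a separate animal is not stated. The p-values therefore measure only the spread between these libraries, which may be technical. The treatment text of the labels names melatonin for every sample, so that the groups rest on the titles.

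Library totals ran from 20595378 to 21309663 estimated counts. Every library of the melatonin table had its best match in the age table, with Pearson r of 0.982 to 0.998 over 13012 genes, against 0.852 to 0.938 between libraries of the same group within a table. Old vehicle replicates 1, 3 and 5 matched old vehicle replicates 2, 8 and 9, and the libraries labelled melatonin 1, 3 and 5 matched young vehicle replicates 2, 4 and 5. The differences within matched pairs were 1.77 to 6.02 times counting error, against 25.1 to 66.4 times within a group, so no pair differed by counting error alone. Whether matched libraries share cells, or whether labels are crossed, was not tested. In either case the melatonin comparison could largely repeat the age comparison. Both comparisons below are therefore given side by side and not as independent of each other, and the melatonin group is called melatonin-labelled. Of 12 marrow stromal cell markers, all had a count in every library except Lepr, which was at 0 in melatonin-labelled replicate 5. Their summed level was 11444 to 44019 CPM in melatonin-labelled and 4287 to 15875 CPM in old vehicle libraries of the melatonin table, and 6028 to 15578 CPM in old and 11579 to 45839 CPM in young vehicle libraries of the age table. Taken gene by gene these 12 markers were split. In melatonin-labelled against old vehicle libraries 7 were higher and 5 lower, and in old against young vehicle libraries 6 were higher and 6 lower. The summed level of 17 macrophage markers was 928, 95.1 and 192 CPM (counts scaled to a common library size by TMM over all 12 libraries) in melatonin-labelled replicates 1, 3 and 5. It was 1103, 21410.2 and 15543 CPM in old vehicle replicates 1, 3 and 5, and 1008, 19321 and 18068.5 CPM in old vehicle replicates 2, 8 and 9. In young vehicle replicates 2, 4 and 5 it was 877, 50.4 and 152 CPM. In such bulk libraries, fewer cells of a type and less RNA per cell cannot be told apart.

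Osteoclasts are the bone-resorbing cells that form by fusion of macrophage precursors. Stromal and osteoblast-lineage cells make CSF1, which keeps the precursors alive, and RANKL (Tnfsf11), which binds RANK (Tnfrsf11a) on the precursors, while the secreted decoy receptor osteoprotegerin (OPG, Tnfrsf11b) takes RANKL away. RANK signals through TRAF6, NF-kB and AP-1 to NFATc1, the transcription factor that switches on osteoclast genes such as Acp5, Ctsk, Dcstamp and Ocstamp. Several of these genes are not restricted to osteoclasts, since macrophages can express Acp5 and fibroblasts can express Ctsk and Nfatc1.

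On the length-scaled TPM level, which allows genes to be compared, the stromal signal Csf1 stood far above every other member. Its median over the 12 libraries was 1140 TPM, against 56.5 TPM for Ctsk, 23.2 TPM for Nfatc1 and 16.2 TPM for Tnfrsf11b. The median TPM was 1.62 for Acp5, 1.23 for Tnfrsf11a, 0.37 for Tnfsf11 and 0.105 for Ocstamp, and it was 0 for Dcstamp and Calcr. Csf1 was above Ctsk in 12 of 12 libraries and Ctsk above Nfatc1 in 11 of 12. Neighbours lower in this order crossed, since Nfatc1 exceeded Tnfrsf11b in 8 of 12 libraries and Acp5 exceeded Tnfrsf11a in 7 of 12. The stromal ligand gene Tnfsf11 had a lower median than Csf1, Tnfrsf11b and Tnfrsf11a, but Tnfrsf11a was above it in only 10 of 12 libraries, the others being old vehicle replicates 1 and 2. The spread of Acp5, from 0.17 to 156 TPM, was wide against that of Nfatc1, from 14.4 to 27.7 TPM.

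**Figure D1:**
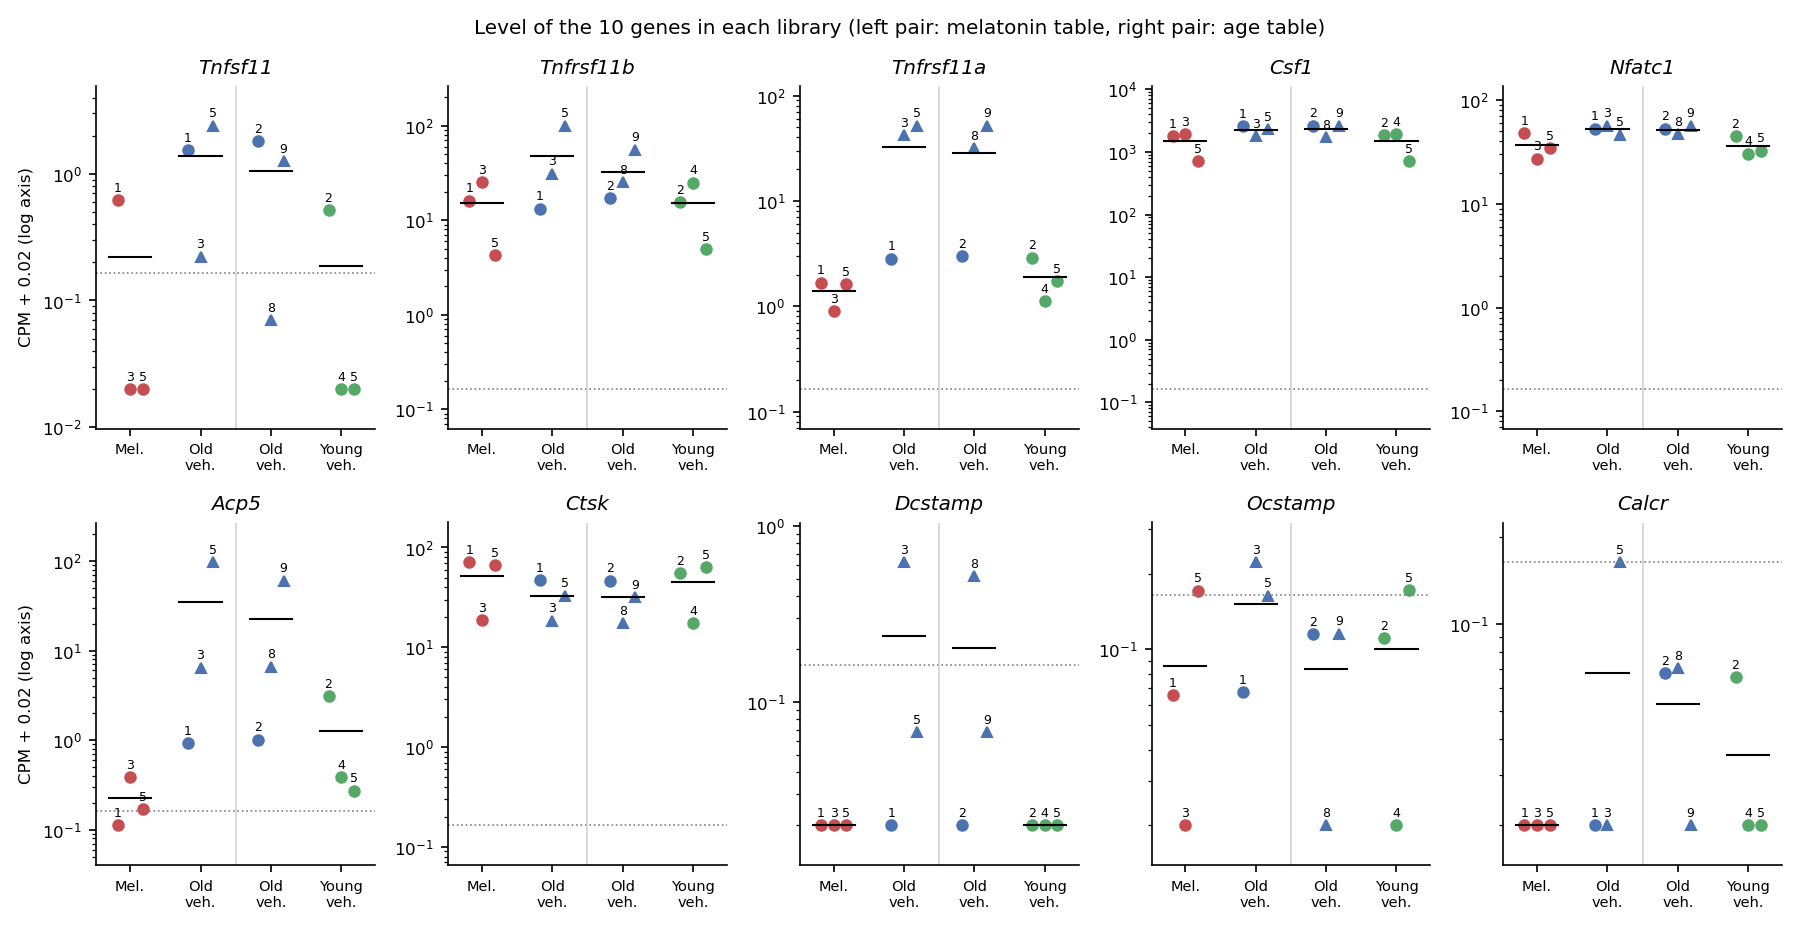
Level of each of the 10 genes in each library, as CPM plus 0.02 on a log axis, with the group mean as a bar and the replicate number beside each point. The left pair of groups in a panel is the melatonin table and the right pair the age table. Triangles are the 4 old vehicle libraries richest in macrophage markers and the dotted line is the mean level of 3 counts. Tnfrsf11a lies between 31.5 and 51.9 CPM in the triangles and between 0.874 and 2.99 CPM elsewhere.

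No member passed the threshold in either comparison, by edgeR's quasi-likelihood test with Benjamini-Hochberg adjustment over all tested genes. In the melatonin table the filter on low counts kept 7 of 10 members, and 0 of these 7 passed an adjusted p under 0.05, as did 0 of 13471 genes in all (0%). There 1 of the 7 had a higher and 6 a lower level in melatonin-labelled than in old vehicle libraries, with a median log2 change of -1.72 against 0.02 over all tested genes. In the age table the same 7 members were kept, and 0 of them and 0 of 13547 genes (0%) passed. There 6 of the 7 were higher and 1 was lower in old than in young vehicle libraries, with a median log2 change of 1.15 against -0.03 over all tested genes. At an unadjusted p under 0.05 there were 2 members in each table, beside 14.2% of genes in the melatonin table (4.76% higher, 9.45% lower) and 13.8% in the age table (8.81% higher, 4.95% lower). These were Tnfrsf11a and Acp5, both lower, in the melatonin table and Tnfrsf11a and Nfatc1, both higher, in the age table. DESeq2's Wald test, an alternative, called Tnfrsf11a and Acp5 in each table, where it called 6.68% of genes in the melatonin table and 6.42% in the age table. With all 6 old vehicle libraries against the young ones, edgeR called 0.354% of genes and no member. That fit took matched old vehicle libraries as separate replicates, so its p-values rest on libraries that may not be independent. Tnfsf11 passed the filter mainly through old vehicle libraries, and in the melatonin table Acp5 passed only through them. The counts over tested members, and the p-values of Acp5 in that table, therefore serve as a description only.

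Tnfsf11, the gene of RANKL, was near the limit of detection. It had 13, 0 and 0 estimated counts in melatonin-labelled replicates 1, 3 and 5 (0.596, 0 and 0 CPM), against 32, 4 and 50 in old vehicle replicates 1, 3 and 5 (1.52, 0.202 and 2.39 CPM). A count of 0 allows up to 3 counts, which equal 0.136 to 0.152 CPM in these libraries and cover counting error only. The groups overlapped, because melatonin-labelled replicate 1 lay above old vehicle replicate 3. The log2 change was -2.75 ± 1.58 (SE, n = 3 libraries per group, edgeR adjusted p = 0.466). By age, Tnfsf11 had 38, 1 and 26 counts in old vehicle replicates 2, 8 and 9 (1.80, 0.0503 and 1.24 CPM), against 11, 0 and 0 in young vehicle replicates 2, 4 and 5 (0.50, 0 and 0 CPM). Here too the groups overlapped, with old vehicle replicate 8 among the young values, and the log2 change was 2.56 ± 1.64 (adjusted p = 0.508). Among old vehicle libraries the ligand did not go with the macrophage markers, since it was low in replicates 3 and 8 and higher in replicates 1, 2, 5 and 9. The summed level of 7 osteoblast markers was 239, 226, 233 and 143 CPM in old vehicle replicates 1, 2, 5 and 9. It was 49.7 to 60.6 CPM in the other 8 libraries. Gene by gene, 2 of 6 tested osteoblast markers were higher and 4 lower in melatonin-labelled than in old vehicle libraries. In old against young vehicle libraries 5 were higher and 1 lower. The part of these markers in the result was not tested. Without the single library that carried counts in the low group, melatonin-labelled replicate 1 or young vehicle replicate 2, the fitted changes were -7.86 and 7.44. Those fits set a group at 0 against the rest and depend on the prior count.

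Tnfrsf11b, the gene of the decoy receptor OPG, was detected in every library and was most abundant in old vehicle replicates 5 and 9. It was at 16.1, 25.4 and 4.28 CPM in melatonin-labelled replicates 1, 3 and 5, against 13.2, 31.2 and 100.4 CPM in old vehicle replicates 1, 3 and 5. The lowest value of old vehicle lay inside the range of the melatonin-labelled libraries. Tnfrsf11b had a log2 change of -1.72 ± 0.91 (adjusted p = 0.435), and it was -0.56 without old vehicle replicate 5 and 0.20 without old vehicle replicates 3 and 5. In the age table it was at 17.2, 25.3 and 55.6 CPM in old vehicle replicates 2, 8 and 9, against 15.4, 24.9 and 4.95 CPM in young vehicle replicates 2, 4 and 5. The groups overlapped, with a log2 change of 1.15 ± 0.68 (adjusted p = 0.479), or 0.52 without old vehicle replicate 9 and 0.19 without old vehicle replicates 8 and 9. The 2 libraries that were high, 5 and 9, are a matched pair, and both are among the 4 with high macrophage markers.

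The balance of ligand to decoy receptor spread widely within each group, and the groups of each table overlapped. Taken per length, Tnfsf11 TPM was 4.71%, 0% and 0% of Tnfrsf11b TPM in melatonin-labelled replicates 1, 3 and 5, against 14.6%, 0.837% and 3.01% in old vehicle replicates 1, 3 and 5. The share was 13.3%, 0.278% and 2.84% in old vehicle replicates 2, 8 and 9, against 4.06%, 0% and 0% in young vehicle replicates 2, 4 and 5. OPG transcripts thus exceeded RANKL transcripts in 12 of 12 libraries. As log2 of the count ratio with 0.5 added to each count, the mean was -7.41 ± 2.71 in melatonin-labelled and -5.20 ± 2.004 in old vehicle libraries (SD, n = 3 each). That is a difference of -2.21 (exact two-sided permutation p = 0.4, where 3 against 3 cannot go below 0.1). By age, the mean was -5.70 ± 2.59 in old and -7.53 ± 2.60 in young vehicle libraries, a difference of 1.84 (exact two-sided permutation p = 0.5). In 4 of the 12 libraries, 2 each of the melatonin-labelled and young groups, Tnfsf11 was at 0 and the ratio rests on the added 0.5. From TPM with 0.01 added, the difference was -3.07 in the melatonin table and 2.66 in the age table (exact two-sided permutation p = 0.3 and 0.4). The highest ratios were in old vehicle replicates 1 and 2, where the ligand was present and the decoy receptor lower than in the other old vehicle libraries. The decoy receptor was at 13.2 and 17.2 CPM there. It was at 16.1 and 15.4 CPM in melatonin-labelled replicate 1 and young vehicle replicate 2, and at 4.28 and 4.95 CPM in the replicates 5 of those groups.

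**Figure D2:**
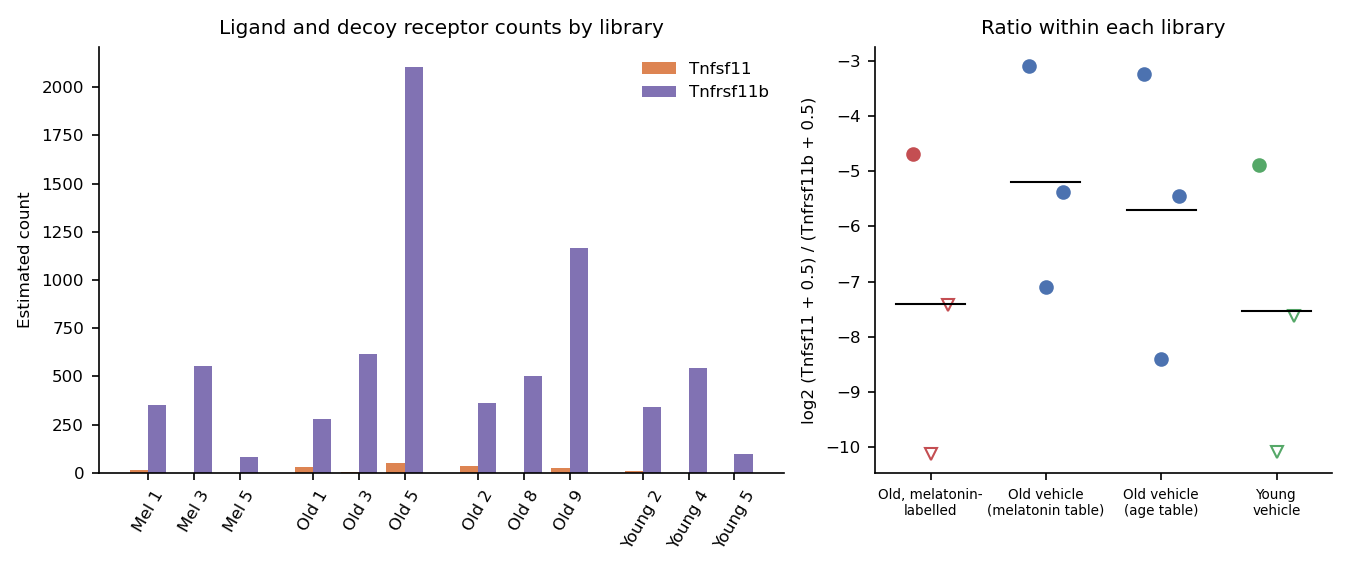
Left, estimated counts of Tnfsf11 (orange) and Tnfrsf11b (purple) in each library. Right, the log2 ratio of both counts, with 0.5 added to each, by group, with the group mean as a bar and open triangles where Tnfsf11 had a count of 0. The ratio spans -3.10 to -10.1 over all libraries and the groups of each table overlap.

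Csf1, the macrophage growth factor gene, was at 1782, 1935 and 707 CPM in melatonin-labelled replicates 1, 3 and 5, against 2566, 1802 and 2329 CPM in old vehicle replicates 1, 3 and 5. The groups overlapped, with replicate 5 lowest among the melatonin-labelled and replicate 3 lowest among the vehicle libraries. The log2 change was -0.63 ± 0.42 (adjusted p = 0.512), or -0.27 without melatonin-labelled replicate 5. By age, Csf1 was at 2628, 1704 and 2637 CPM in old vehicle replicates 2, 8 and 9, against 1873, 1910 and 706 CPM in young vehicle replicates 2, 4 and 5, a log2 change of 0.66 ± 0.44 (adjusted p = 0.525). It was 0.30 without young vehicle replicate 5, the lowest library. Csf1 and the macrophage markers did not run in parallel among old vehicle libraries: replicates 3 and 8, with the 2 highest marker sums, had the lowest Csf1 of their group, while the macrophage-rich replicates 5 and 9 were at 2329 and 2637 CPM, close to the 2566 and 2628 CPM of the macrophage-poor replicates 1 and 2. Without the 2 libraries richest in those markers the change was -0.80 in the melatonin table and 0.81 in the age table, each fit with a lone old vehicle library.

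Tnfrsf11a, the gene of the receptor RANK, followed the macrophage markers. It was at 1.65, 0.874 and 1.61 CPM in melatonin-labelled replicates 1, 3 and 5, against 2.80, 42.2 and 51.9 CPM in old vehicle replicates 1, 3 and 5. The groups did not overlap, as for 9.78% of all tested genes in this direction, but the vehicle library nearest to the others was replicate 1. Tnfrsf11a had a log2 change of -4.58 ± 1.09 (edgeR adjusted p = 0.286, DESeq2 adjusted p = 8.21e-05), and without old vehicle replicate 1 it was -5.12 (edgeR adjusted p = 0.0299), a fit in which 3.24% of genes passed. Tnfrsf11a was at 2.99, 31.5 and 51.6 CPM in old vehicle replicates 2, 8 and 9, against 2.86, 1.10 and 1.72 CPM in young vehicle replicates 2, 4 and 5. These groups did not overlap either, as for 9.28% of all tested genes in this direction, by the small margin between old and young vehicle replicates 2. Its log2 change by age was 3.93 ± 1.05 (edgeR adjusted p = 0.315, DESeq2 adjusted p = 0.00102). Without the 2 macrophage-rich libraries of the old vehicle group it was -1.02 in the melatonin table and 0.65 in the age table, and what part those cells have in the rest was not tested.

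Acp5, which encodes tartrate-resistant acid phosphatase, the classical stain of osteoclasts, spread most widely. It was at 0.0917, 0.368 and 0.151 CPM in melatonin-labelled replicates 1, 3 and 5, against 0.902, 6.42 and 97.3 CPM in old vehicle replicates 1, 3 and 5. The groups did not overlap, as for 9.78% of all tested genes in this direction. The melatonin-labelled values stand for 2, 8 and 3 counts, so Acp5 passed the filter there only through old vehicle libraries. Acp5 had a log2 change of -7.44 ± 1.99 (edgeR adjusted p = 0.286, DESeq2 adjusted p = 1.63e-05), -4.15 without old vehicle replicate 5 and -2.13 without old vehicle replicates 3 and 5. By age, Acp5 was at 0.996, 6.59 and 60.1 CPM in old vehicle replicates 2, 8 and 9, against 3.09, 0.367 and 0.253 CPM in young vehicle replicates 2, 4 and 5. These groups overlapped, because young vehicle replicate 2 lay above old vehicle replicate 2. Its log2 change by age was 4.18 ± 1.74 (edgeR adjusted p = 0.365, DESeq2 adjusted p = 0.0386), 1.61 without old vehicle replicate 9 and -0.33 without old vehicle replicates 8 and 9.

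Nfatc1, the transcription factor gene, varied little. It was at 48.2, 27.3 and 34.2 CPM in melatonin-labelled replicates 1, 3 and 5, against 53.1, 56.9 and 46.5 CPM in old vehicle replicates 1, 3 and 5. Melatonin-labelled replicate 1 exceeded old vehicle replicate 5, so the groups overlapped, and the log2 change was -0.54 ± 0.26 (adjusted p = 0.407). Nfatc1 was at 52.9, 46.6 and 56.6 CPM in old vehicle replicates 2, 8 and 9, against 44.6, 30.5 and 32.5 CPM in young vehicle replicates 2, 4 and 5. Those groups did not overlap, as for 9.28% of all tested genes in this direction, and the log2 change was 0.55 ± 0.21 (adjusted p = 0.349). Unlike Tnfrsf11a, Nfatc1 was as high in old vehicle replicates 1 and 2, which have low macrophage markers, as in the other old vehicle libraries. Without the 2 macrophage-rich libraries the change was -0.54 in the melatonin table and 0.56 in the age table, as large as with them.

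Ctsk, which encodes cathepsin K, the collagen-degrading protease of the osteoclast, did not follow Acp5. It was at 71.5, 18.6 and 66.4 CPM in melatonin-labelled replicates 1, 3 and 5, against 47.1, 18.5 and 32.9 CPM in old vehicle replicates 1, 3 and 5. The groups overlapped, and the log2 change was 0.66 ± 0.59 (adjusted p = 0.621). It ran from 0.34 without melatonin-labelled replicate 1 to 1.05 without melatonin-labelled replicate 3, and was 0.14 without old vehicle replicates 3 and 5. Ctsk was at 46.4, 17.5 and 31.7 CPM in old vehicle replicates 2, 8 and 9, against 55.5, 17.3 and 63.3 CPM in young vehicle replicates 2, 4 and 5, with a log2 change of -0.51 ± 0.57 (adjusted p = 0.709). That change ran from -0.89 without young vehicle replicate 4 to -0.20 without young vehicle replicate 5, and was 0.026 without old vehicle replicates 8 and 9. Ctsk was near its lowest level both in young vehicle replicate 4, with the lowest macrophage markers of all, and in old vehicle replicates 3 and 8, with the highest.

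**Figure D3:**
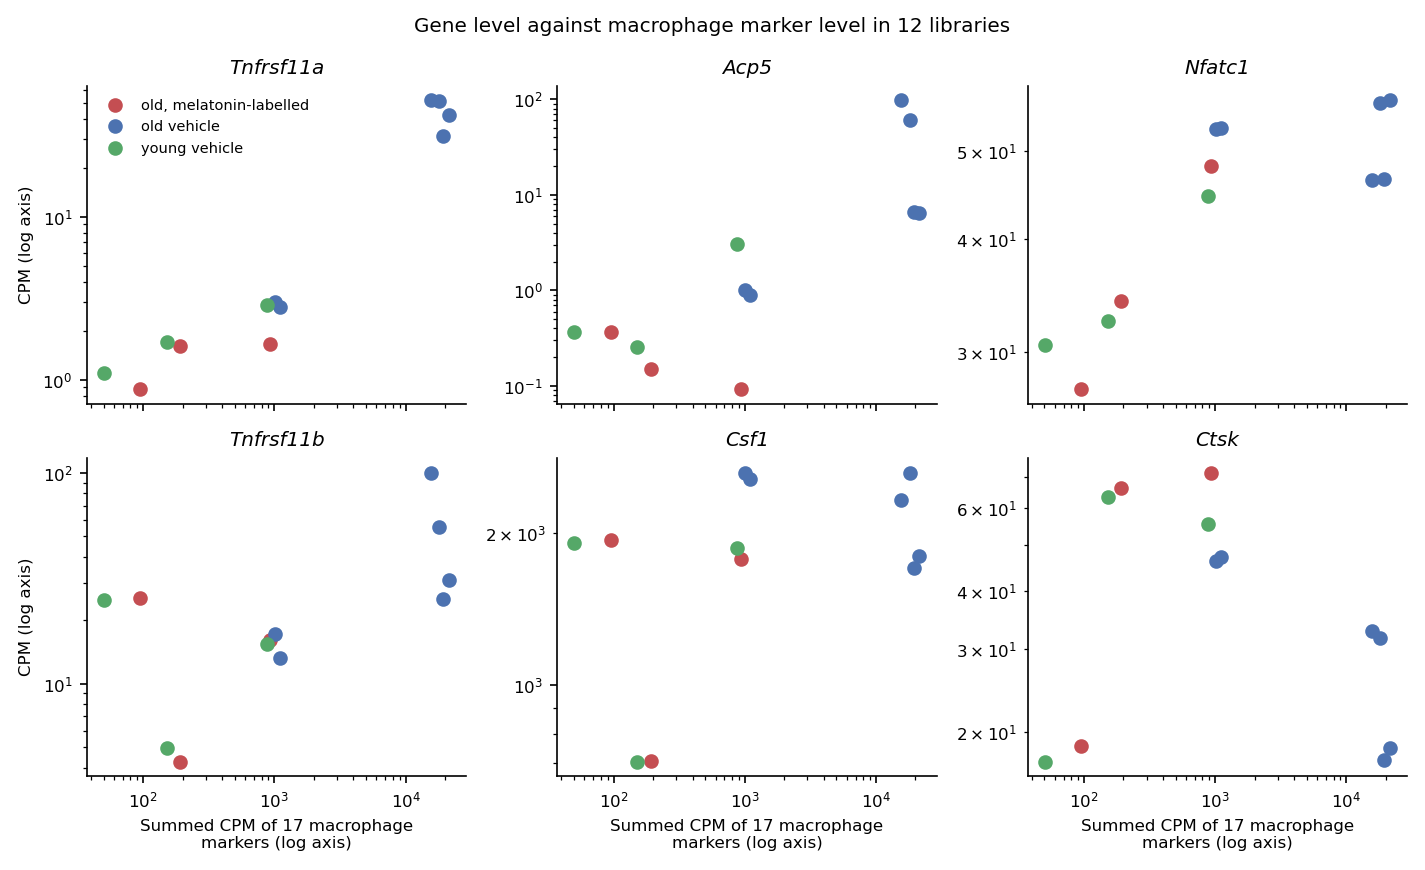
CPM of 6 members against the summed CPM of 17 macrophage markers, both on log axes, with 1 point for each of the 12 libraries. The 4 old vehicle libraries at the right, with marker sums of 15543 CPM or more, hold the 4 highest values of Tnfrsf11a and of Acp5, while Ctsk is at 32.9 CPM or less in them.

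Promoter windows of Tnfrsf11a, Acp5 and Ctsk are shown because the receptor and Acp5 were high in the same 4 libraries and Ctsk was not. Each is a RefSeq window of GRCm38.p6, another build than the mm39 of the deposited tables, which runs from 250 bases before to 50 bases after a gene start and is written 5′ to 3′ on the strand of the gene. Capitals mark matches, on either strand, to the motifs TGANTCA (AP-1), GGAAA (NFAT), GAGGAA (PU.1), CACGTG and CATGTG (E-boxes bound by MITF). PU.1 and NFAT matches can overlap by letters, though none did in these windows. Acp5 has 3 windows, of which the one with most matches is printed.
Tnfrsf11a, chr1:105780473-105780772, plus strand: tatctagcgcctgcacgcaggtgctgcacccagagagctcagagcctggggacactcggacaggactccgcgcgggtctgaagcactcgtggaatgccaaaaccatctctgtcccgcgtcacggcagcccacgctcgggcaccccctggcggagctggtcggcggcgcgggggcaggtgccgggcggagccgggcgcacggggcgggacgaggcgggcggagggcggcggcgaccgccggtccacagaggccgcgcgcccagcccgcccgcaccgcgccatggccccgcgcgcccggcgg
Acp5, chr9:22130549-22130848, minus strand: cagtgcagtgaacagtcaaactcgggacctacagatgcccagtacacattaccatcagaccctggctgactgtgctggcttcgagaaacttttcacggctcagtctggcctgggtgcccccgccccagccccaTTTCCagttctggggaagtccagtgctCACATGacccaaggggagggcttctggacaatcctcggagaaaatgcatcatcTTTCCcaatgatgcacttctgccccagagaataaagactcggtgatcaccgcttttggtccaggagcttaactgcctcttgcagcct
Ctsk, chr3:95498960-95499259, plus strand: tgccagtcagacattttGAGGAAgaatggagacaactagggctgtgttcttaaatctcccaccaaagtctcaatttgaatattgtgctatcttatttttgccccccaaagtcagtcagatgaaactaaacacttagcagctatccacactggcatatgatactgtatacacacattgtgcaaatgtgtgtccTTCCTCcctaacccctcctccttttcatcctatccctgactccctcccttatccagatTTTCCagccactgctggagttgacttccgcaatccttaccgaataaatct
The Acp5 window held 2 NFAT matches and 1 E-box match (CATGTG), the Ctsk window 2 PU.1 matches and 1 NFAT match, and the Tnfrsf11a window none. Of all 32851 such windows, 61.3% held the NFAT letters, 28.3% the PU.1 letters, 14.2% CATGTG, 7.81% the AP-1 letters and 7.15% CACGTG. A match is a description of letters and not a bound site, and the absence of a match says only that the letters are not in that window. Of the 10 members, 6 have an entry in the RefSeq table.

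Genes of cell fusion and of the mature osteoclast were at or near 0. Dcstamp, which encodes a membrane protein required for fusion, had 0, 0 and 0 counts in melatonin-labelled replicates 1, 3 and 5 and 0, 12 and 1 in old vehicle replicates 1, 3 and 5. It had 0, 10 and 1 counts in old vehicle replicates 2, 8 and 9 and 0, 0 and 0 in young vehicle replicates 2, 4 and 5. All of its counts thus lay in the 4 old vehicle libraries with high macrophage markers, and above 3 counts only in the matched replicates 3 and 8. Ocstamp, its relative in fusion, had 1, 0 and 3 counts in melatonin-labelled and 1, 4 and 3 in the old vehicle libraries of that table. It had 2, 0 and 2 counts in old and 2, 0 and 3 in young vehicle libraries of the age table. Calcr, the calcitonin receptor gene of mature osteoclasts, was at or below 3 counts in 12 of 12 libraries, with 0, 0 and 0 counts in melatonin-labelled replicates 1, 3 and 5 and 0, 0 and 3 in old vehicle replicates 1, 3 and 5. It had 1, 1 and 0 counts in old vehicle replicates 2, 8 and 9 and 1, 0 and 0 in young vehicle replicates 2, 4 and 5. These 3 genes fell under the filter, were not tested, and no difference was detectable for Ocstamp and Calcr at this depth.

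The 4 old vehicle libraries rich in macrophage markers were not alike in osteoclast genes. The matched replicates 5 and 9 had 97.3 and 60.1 CPM of Acp5, against 6.42 and 6.59 CPM in the matched replicates 3 and 8. The same held for the decoy receptor gene Tnfrsf11b, at 100.4 and 55.6 CPM against 31.2 and 25.3 CPM, and the ligand gene Tnfsf11, at 2.39 and 1.24 CPM against 0.202 and 0.0503 CPM. Dcstamp went the other way. So did Mmp9, the gelatinase gene of osteoclasts and macrophages, with 6.78 and 4.82 CPM in replicates 5 and 9 against 17.8 and 41.3 CPM in replicates 3 and 8, and Il1a, the interleukin-1 alpha gene, with 1.34 and 1.29 CPM against 11.02 and 16.1 CPM. The receptor Tnfrsf11a was at 51.9 and 51.6 CPM in replicates 5 and 9 against 42.2 and 31.5 CPM in replicates 3 and 8. These libraries were set side by side after their values were seen, and no test was made.

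Within matched pairs the size of the difference varied by member. The largest, in log2(CPM + 1) over the 6 members with a mean of at least 1 CPM, was that of Acp5 between melatonin-labelled replicate 1 and young vehicle replicate 2. Acp5 had 2 counts in melatonin-labelled replicate 1 and 68 in young vehicle replicate 2, a difference of -1.90 in log2(CPM + 1), which only 12 of 13012 genes equalled or exceeded within that pair. Tnfrsf11a, with 35.8 and 63.0 estimated counts there, differed by -0.54, which 2.23% of genes equalled or exceeded. Macrophage markers did not differ in that way, at 928 CPM in melatonin-labelled replicate 1 and 877 CPM in young vehicle replicate 2. Csf1 differed by -0.07 in the same pair, and Nfatc1 by 0.11. Between old vehicle replicates 5 and 9, Tnfrsf11b differed by 0.84 and Acp5 by 0.69, which 4.01% and 6.32% of genes equalled or exceeded there. Tnfrsf11a differed by 0.41 between old vehicle replicates 3 and 8 (3.53% of genes), and Tnfrsf11b by -0.35 between old vehicle replicates 1 and 2 (3.09%). These pairs were picked out after their values were seen.

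**Figure D4:**
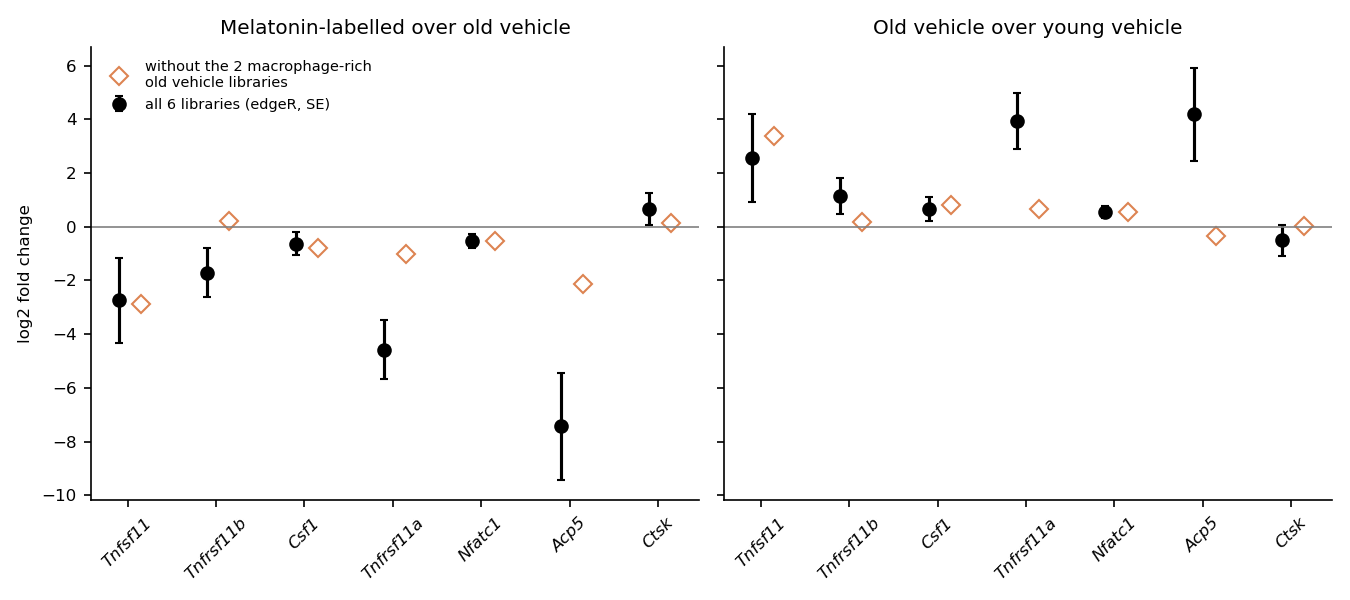
Log2 fold change of the 7 tested members, melatonin-labelled over old vehicle at left and old over young vehicle at right. Filled circles are the fits with all 6 libraries of a table, with SE, and open diamonds the fits without the 2 old vehicle libraries richest in macrophage markers. Nfatc1 is about as far from 0 in both fits, while Csf1 and Tnfsf11 lie farther from 0 in the second. Tnfrsf11a, Acp5, Tnfrsf11b and Ctsk lie nearer to 0 in the second, which rests on a lone old vehicle library in each table.

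Further genes of the pathway were taken from 4 lists by role, none of which held a gene that passed the edgeR threshold in either comparison. Among receptors and transcription factors of osteoclast precursors, 0 of 10 tested genes were higher and 10 lower in melatonin-labelled than in old vehicle libraries, with a median log2 change of -4.84. By age, 11 of 11 were higher in old than in young vehicle libraries, with a median of 4.81. Csf1r, the receptor for CSF1, was at 26.7, 5.25 and 6.19 CPM in melatonin-labelled replicates 1, 3 and 5 against 45.6, 667 and 655 CPM in old vehicle replicates 1, 3 and 5, a log2 change of -5.18 ± 1.27 (adjusted p = 0.286). The RANK co-receptor adaptors Fcer1g and Tyrobp differed by -5.19 ± 1.44 and -5.25 ± 1.47, and the transcription factor gene Irf8, a repressor of osteoclast formation, by -5.06 ± 1.34. By age, Csf1r differed by 5.06 ± 1.48, Fcer1g by 5.36 ± 1.64, the macrophage receptor gene Trem2 by 5.07 ± 1.44 and Mitf, a partner of PU.1, by 1.26 ± 0.39 (adjusted p = 0.315 for each). All of these genes had their 4 highest levels in the 4 macrophage-rich old vehicle libraries. Without the 2 such libraries of a table, 1 of 10 was higher in the melatonin table with a median of -1.25, and 10 of 11 were higher in the age table with a median of 1.03. Many genes of this list are macrophage genes and passed the filter through those libraries.

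Genes of bone resorption were mixed. Of 10 tested genes 2 were higher and 8 lower in melatonin-labelled than in old vehicle libraries (median log2 change -0.71), and 8 of 11 were higher and 3 lower in old than in young vehicle libraries (median 0.83). Without the 2 macrophage-rich libraries of a table, 4 of 10 were higher in the melatonin table with a median of -0.08, and 7 of 11 in the age table with a median of 0.06. Tcirg1 and Atp6v0d2, subunit genes of the proton pump that acidifies the resorption space, had their 4 highest levels in the macrophage-rich libraries. Tcirg1 was at 70.2, 67.8 and 40.3 CPM in melatonin-labelled replicates 1, 3 and 5 against 44.0, 345 and 241 CPM in old vehicle replicates 1, 3 and 5, a log2 change of -1.86 ± 0.72 (adjusted p = 0.337). Atp6v0d2 differed by 3.36 ± 0.93 and Mmp9 by 5.56 ± 1.78 between old and young vehicle libraries (adjusted p = 0.315 for each). Mmp9 was at 0.237, 41.3 and 4.82 CPM in old vehicle replicates 2, 8 and 9, against 0.50, 0.321 and 0.152 CPM in young vehicle replicates 2, 4 and 5. It thus passed the filter with the help of the macrophage-rich libraries, and in the melatonin table it was not tested. Plekhm1 and Snx10, genes of vesicle traffic whose loss impairs resorption, differed by -1.45 ± 0.43 and -1.12 ± 0.43 in the melatonin table, and Plekhm1 by 1.22 ± 0.42 in the age table. These genes and Mmp9 were also higher in the 4 macrophage-rich libraries than in the other 8, with 104 to 136 against 33.3 to 44.2 CPM for Plekhm1, 64.2 to 80.2 against 22.0 to 41.6 CPM for Snx10 and 4.82 to 41.3 against 0.0917 to 0.50 CPM for Mmp9. Itgb3, which encodes the beta chain of the integrin with which osteoclasts attach to bone, ran the other way. It was at 7.75, 13.3 and 16.7 CPM in melatonin-labelled replicates 1, 3 and 5 against 5.56, 2.22 and 3.49 CPM in old vehicle replicates 1, 3 and 5, a log2 change of 1.71 ± 0.46 (adjusted p = 0.286). Itgb3 was at 5.17, 1.96 and 2.82 CPM in old vehicle replicates 2, 8 and 9 against 7.95, 11.2 and 14.5 CPM in young vehicle replicates 2, 4 and 5, a log2 change of -1.74 ± 0.46 (adjusted p = 0.315). Neither pair of groups overlapped for Itgb3, as for 9.09% of tested genes in that direction in the melatonin table and 9.23% in the age table.

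**Figure D5:**
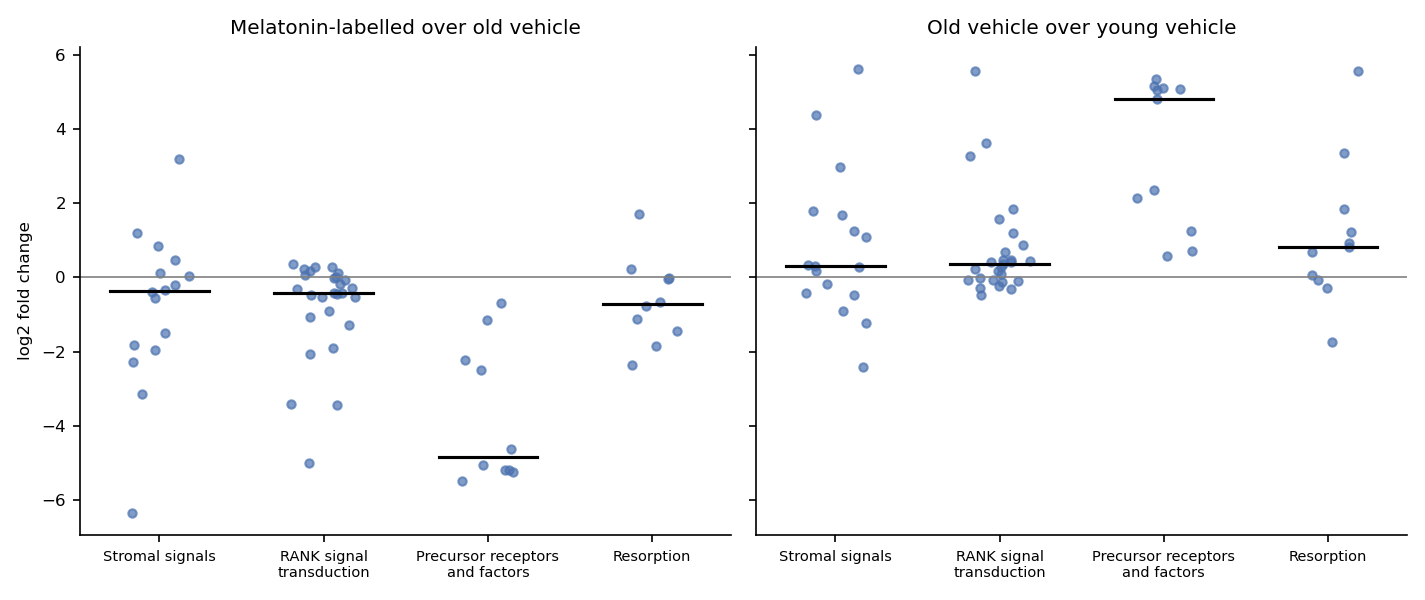
Log2 fold changes of the tested genes of 4 pathway lists, melatonin-labelled over old vehicle at left and old over young vehicle at right, with 1 point per gene and the median as a bar. The list of precursor receptors and factors has medians of -4.84 and 4.81, and the other lists have medians between -0.71 and 0.83.

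Among RANK signal transduction genes, 8 of 27 were higher and 19 lower in melatonin-labelled libraries (median log2 change -0.41), and 18 were higher and 9 lower in old than in young vehicle libraries (median 0.36). Genes with the smallest p were those of the kinase Btk, the phospholipase Plcg2, the adaptor Gab2 and the AP-1 subunit Jun in both tables. They differed by -5.00 ± 1.43, -3.44 ± 1.14, -1.90 ± 0.61 and -1.06 ± 0.37 in the melatonin table. By age, they differed by 5.56 ± 1.63, 3.63 ± 1.19, 1.56 ± 0.54 and 0.86 ± 0.38. Each had its 4 highest levels in the macrophage-rich libraries, and without them 15 of 27 were higher in the melatonin table and 11 of 27 in the age table. Among stromal and inflammatory signals that act on osteoclast formation, 6 of 16 were higher and 10 lower in melatonin-labelled libraries (median -0.38), and 11 of 17 were higher and 6 lower in old vehicle libraries (median 0.30). The chemokine gene Ccl2 differed by -3.14 ± 0.89 and 2.97 ± 0.93 in the melatonin and age table, and the tumour necrosis factor gene Tnf by -6.34 ± 1.66 and 5.61 ± 2.11. Il1a differed by 4.39 ± 1.62 in the age table, and Ptger4, a prostaglandin E2 receptor gene, by -1.49 ± 0.53 in the melatonin table. Of these, Ccl2, Tnf and Il1a had their 4 highest levels in the macrophage-rich libraries. Ccl2 was at 166 to 341 CPM in those 4 and 7.63 to 36.9 CPM in the other 8, Tnf at 40.5 to 61.4 and 0 to 2.04 CPM, and Il1a at 1.29 to 16.1 and 0.095 to 0.545 CPM. Tnf and Il1a thus passed the filter with the help of those libraries. The fold change of Il1a is set against levels near the limit of 3 counts in most of the others. Tnf was above that limit at 0.616 and 2.04 CPM in old and young vehicle replicates 2. It was also above it at 0.522 CPM in old vehicle replicate 1, and at 0.688, 0.230 and 0.352 CPM in melatonin-labelled replicates 1, 3 and 5. Tnf was under the limit only in young vehicle replicates 4 and 5, at 0.0459 and 0 CPM. Without the 2 macrophage-rich libraries of a table, 9 of 16 were higher in the melatonin table and 7 of 17 in the age table.

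Sema3a, a stromal semaphorin gene whose product inhibits osteoclast formation in mice, was higher in melatonin-labelled and in young libraries than in old vehicle ones. It was at 45.6, 51.8 and 264 CPM in melatonin-labelled replicates 1, 3 and 5 against 14.9, 19.97 and 4.11 CPM in old vehicle replicates 1, 3 and 5. By age, Sema3a was at 15.6, 20.6 and 25.8 CPM in old vehicle replicates 2, 8 and 9 against 43.4, 46.4 and 248 CPM in young vehicle replicates 2, 4 and 5. Neither pair of groups overlapped, as for 9.09% of tested genes in that direction in the melatonin table and 9.23% in the age table. Old vehicle replicates 1 and 2, low in macrophage markers, lay below replicates 3, 8 and 9 and above replicate 5. Sema3a had a log2 change of 3.19 ± 0.94 in the melatonin table (adjusted p = 0.286) and -2.43 ± 0.76 in the age table (adjusted p = 0.315).

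By likeness of log2(CPM + 1) over the 12 libraries, which form 6 matched pairs and are not independent, the members had different companions among 13012 genes. Closest to Tnfrsf11a were Card9, Gpr65, Gpr141, Slamf9 and Cd300e, with Pearson r of 0.994 to 0.996. Closest to Acp5 were Marco, Slc13a3, Siglece, Angpt2 and Trarg1 (r of 0.982 to 0.991), and closest to Ctsk were Il17rc, Tbx15, Fam13c, Lpar1 and Dclk1 (0.972 to 0.986). Csf1 was most like Calhm2, Rnf181, Fst, Gse1 and Tmem33 (0.970 to 0.984), and Tnfrsf11b most like Pitpnc1, Ptpn7, Ly96, Rasa4 and Plekha3 (0.957 to 0.968). Nfatc1 had the loosest match, with Gpr108, Gstt3, Ssh3, Ecm1 and Car5b at 0.925 to 0.943. No member was among the 5 genes most like another.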

How the data were processed

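RNA of 12 libraries of cultured mouse MSCs was made into libraries with the BGISEQ500 protocol and sequenced, per the labels' protocols. Each table deposited by the authors gives estimated counts, FPKM and TPM per gene and library, per the file headers. The authors' estimated counts are not normalized, and of these values 67.7% were whole within 0.005. The FPKM deposited by the authors are scaled by gene length and library size and were not used. The TPM deposited by the authors are scaled by length to a common total and served for levels between genes. RSEM, BWA, Bowtie2 and mm39 are listed in the submitters' processing notes without role or version, and the strand setting is not given in the sources used here. Each table holds 6 libraries with totals of 20595378 to 21309663.

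Estimated counts were rounded, filtered with filterByExpr (minimum count 10, minimum total 15), scaled by TMM and tested within each table by edgeR 4.0.16 in R 4.3.3 (quasi-likelihood test, Benjamini-Hochberg over all tested genes, threshold 0.05). The SE is the log2 change divided by the root of the F statistic. The fits were tested first on simulated data with less spread between libraries than these data have. That check therefore does not measure the power of the fits here. Alternatives were DESeq2 1.42.0, no filter, all 6 old vehicle libraries, the replicate number as a block, and leaving out each library or the 2 old vehicle libraries of a table with the highest macrophage markers, which leaves a lone old vehicle library assumed to vary like the other groups. Counts of list genes under these fits were chosen after seeing the data. The 10 members and all lists were chosen with earlier results of these data known. Named list genes are the 4 of smallest p per list and comparison, and named companions are the 5 genes of highest r for members with a mean of at least 1 CPM.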

Additional observations from a re-analysis of the deposited data

Results flagged for a closer look

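Calcr in old vehicle replicate 5, at 0.143 CPM, stood apart from the other 5 old vehicle libraries on the scale of the group's range. That value is 3 counts against 0 or 1 in the others, which is at the limit that a count of 0 allows. A gap of this size is met by chance in about 1 of 20 groups of normally spread values. That rate need not hold for tied low counts such as these and was not computed for them. In all, 10 genes were examined at both ends of the group.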

How the results depend on the processing

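The count of genes called was the value most open to the choice of test. It was 0 by edgeR in each table, 865 by DESeq2 in the age table and 895 by DESeq2 in the melatonin table. It was 48 with all 6 old vehicle libraries against young, a fit that took matched libraries as separate replicates. As single libraries were left out, it ran from 0 to 0 in the age table and from 0 to 436 in the melatonin table, with 436 without old vehicle replicate 1. No filter left it at 0 in each table. Without the 2 macrophage-rich old vehicle libraries Acp5 turned to -0.33 and Ctsk to 0.026 (log2) in the age table, and Tnfrsf11b to 0.20 in the melatonin table, and the cause was not tested. Of 140 alternative values for the log2 changes of tested members, 132 kept their direction and side of the threshold, 5 passed it and 3 reversed. The difference in the log2 ratio of Tnfsf11 to Tnfrsf11b ran from -3.57 to -0.86 in the melatonin table and from 0.56 to 3.19 in the age table as single libraries were left out. With the replicate number as a block the mean of the paired differences was -2.21, which equals the unpaired difference by construction. The edgeR fit with that block called 0 genes in the melatonin table. The labels do not say that a shared number is a shared donor, so the number was not taken as a pairing. Deviations of same-numbered libraries from their group means correlated at -0.22, 0.11 and -0.02, and not every library correlated best with its own number. With so few libraries per group, these correlations cannot show whether the numbers pair the libraries. At this depth a gene needs more than 3 counts, about 0.15 CPM, to be told from 0, which limits what can be said of Tnfsf11, Dcstamp, Ocstamp and Calcr.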
